A study of Homo sapiens with 9 samples.

Results

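The epithelial keratins examined here were 8 genes, KRT7, KRT8, KRT10, KRT18, KRT19, KRT80, KRT81 and KRT86, taken by gene symbol from a table of 19930 genes with values. All 8 had a row. Expression is given in FPKM, fragments per kilobase of transcript and per 1 M fragments, and each of the 8 averaged 1 FPKM or more, as did 12884 genes in all. The table came from RNA sequencing of MDA-MB-453, an established human breast cancer cell line, harvested 48 h after a transfection with the lipid reagent Lipofectamine. Of the 3 groups of 3 libraries, X453_NC was the control (si-NC below), and X453_1 and X453_2 carried the label Linc00673 knockdown, a long noncoding RNA. Their numbers are read here as the first and second siRNA of the study (siRNA 1 and siRNA 2), which the labels do not spell out. In each group 1 library had no suffix and the others were r1 and r2, and values are given in that order. The labels do not say that the libraries came from separate cultures, so a P value here measures only the spread between these libraries, which may be technical. The level of Linc00673 itself was not analysed here.

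Keratins are the intermediate filament proteins of epithelial cells. A type I (acidic) and a type II (basic) keratin pair to form the filament, and the unpaired partner is degraded, so that cells usually hold both types in similar amounts of protein. KRT8 (type II) with KRT18 and KRT19 (type I) are the keratins of simple epithelia such as the luminal cells of the breast, and KRT7 (type II) marks many ductal and glandular epithelia. KRT10 (type I) belongs to differentiating epidermis, KRT80 is a type II keratin linked to desmosomes and the cell edge, and KRT81 and KRT86 are type II keratins of the hair.

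How alike the members are bears on how far their reads can be told apart, so a stretch of 60 coding bases at the end of the rod domain, one of the most conserved parts of a keratin, is shown for the type I genes, 5′ to 3′, from GENCODE transcripts on GRCh38. Capitals mark bases that differ from KRT18 (chr12:52952266-52952325, plus strand, exon 6), and the other stretches lie in exon 6 of KRT19 (chr17:41523791-41523850, minus strand) and exon 6 of KRT10 (chr17:40819528-40819587, minus strand).
KRT18: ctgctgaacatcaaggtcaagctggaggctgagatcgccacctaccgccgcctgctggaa
KRT19: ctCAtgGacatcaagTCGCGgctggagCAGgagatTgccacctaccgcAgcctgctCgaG
KRT10: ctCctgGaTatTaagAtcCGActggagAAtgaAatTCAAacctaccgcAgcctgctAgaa

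KRT19 differed from KRT18 at 15 of these bases and KRT10 at 17. Over their whole coding sequences KRT81 and KRT86 were 94.15% identical, with 1 identical run of 605 bases, and no other pair of members passed 77.37% (KRT7 and KRT8). Of all windows of 100 bases, 30.33% of the KRT81 transcript sequence also occurred in another gene, as did 27.95% of KRT86 and 7.557% of KRT8, whose top match was the pseudogene KRT8P3. The other 5 members shared no such window. How the counting treated fragments that match several genes is not given in the sources used here, so the split between KRT81 and KRT86 is uncertain and their sum is given as well.

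The gene models of the table (GRCh37) also overlap. The KRT8 model (chr12:53290971-53343650, minus strand) and the KRT18 model (chr12:53342655-53346685, plus strand) share 996 bases on opposite strands. KRT81 (chr12:52646998-52715182, minus strand) shares 55950 bases of its span with KRT86 (chr12:52637757-52702947, plus strand) and 35486 with KRT85, and KRT86 shares 4953 with KRT7 (chr12:52626954-52642709, plus strand). KRT10 (chr17:38974369-38978863, minus strand) shares 3520 bases with TMEM99 on the other strand. KRT19 (chr17:39679869-39684641) and KRT80 (chr12:52562780-52585784) overlapped no other model. Whether the counting used strand is not stated, and reads of overlapping models may not have been told apart.

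The depth, read from the smallest steps of the FPKM scale, was 23.15 to 27.25 M fragments per library, so that the groups had similar precision. The siRNA libraries differed from the control in a property tied to base composition. For genes in the top GC quintile of their transcripts, the median log2 deviation from the control was -0.28 to -0.35 in siRNA 1 and -0.29 to -0.46 in siRNA 2, the lowest being the siRNA 2 library without a suffix. The median log2 fold change of all 12884 genes was 0.0032 for siRNA 1 and -0.095 for siRNA 2. Genes were called where limma on log2(FPKM + 1) gave a 1.3-fold difference or more together with an unadjusted P not above 0.05, and log2 fold changes below are on that scale. For siRNA 2, 1411 genes were called higher and 2974 lower, and 1975 and 2246 after the libraries were scaled by their median ratio. For siRNA 2 against siRNA 1 the counts were 282 higher and 702 lower, and 524 and 321 after scaling.

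MDA-MB-453 cells expressed KRT8, KRT18 and KRT19 at very high levels and the other members at far lower ones. In si-NC the mean level was 3617 ± 158 FPKM (SD, n = 3) for KRT8, 2433 ± 83.8 for KRT18 and 1180 ± 78.9 for KRT19, which ranked 9, 28 and 82 of all genes in the table. The next level was that of KRT80 at 61.3 ± 0.80 FPKM, followed by KRT7 at 45.3 ± 2.6. KRT86 had 20.1 ± 1.8 FPKM, KRT81 had 11.3 ± 1.3 and KRT10 had 5.04 ± 0.084, above 72.1%, 55.7% and 32.2% of the tested genes. The order of the 8 members was the same in all 3 groups, and between neighbours in it each library of the higher gene lay above each library of the lower one.

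**Figure D1:**
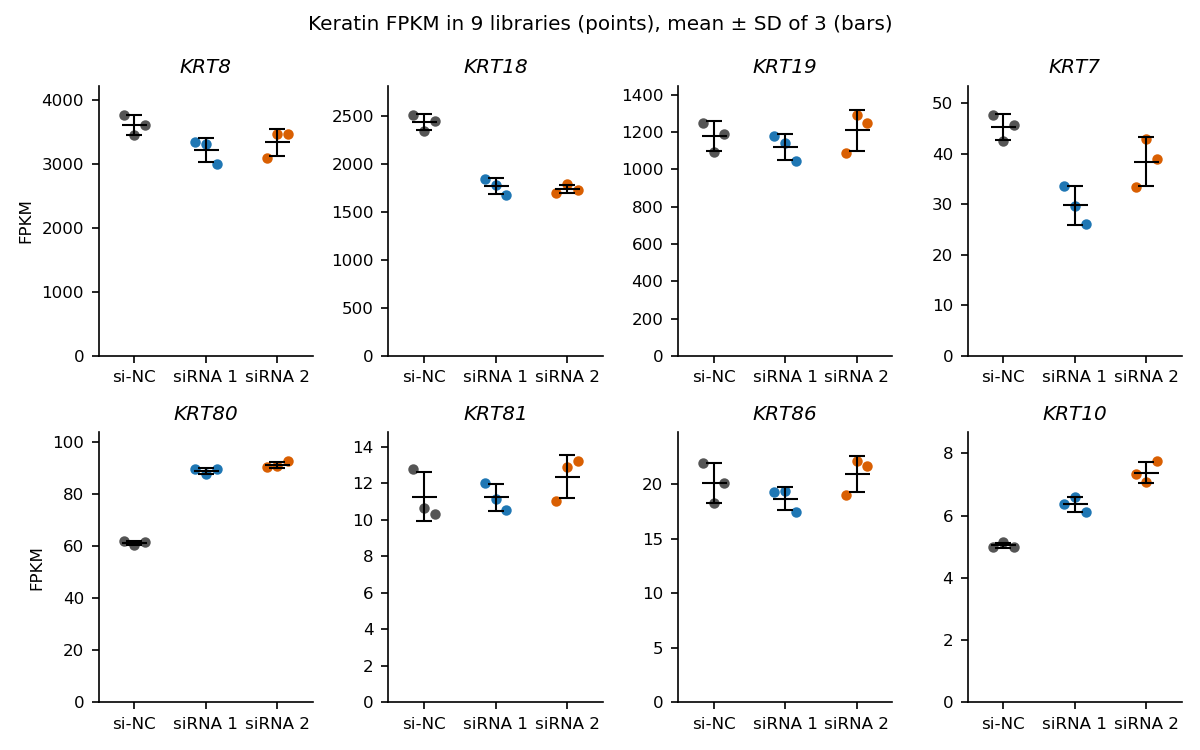
FPKM (vertical axes, from 0) of the 8 keratins in the si-NC, siRNA 1 and siRNA 2 libraries. Points are libraries and bars are the mean ± SD of 3. KRT18 lies lower and KRT80 and KRT10 lie higher in all siRNA libraries than in any si-NC library.

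KRT18, the type I partner of KRT8, was lower after both siRNAs. Its level was 2509, 2343 and 2448 FPKM in si-NC, 1846, 1783 and 1680 in siRNA 1, and 1699, 1788 and 1730 in siRNA 2. All 6 siRNA libraries lay below all 3 control libraries, and the siRNA groups overlapped each other. On the log2 scale the difference was -0.46 ± 0.039 (SE) for siRNA 1, a 1.38-fold lower level, with a limma adjusted P of 5.48e-06. It was -0.48 ± 0.039 for siRNA 2, 1.40-fold lower, with a limma adjusted P of 2.63e-06.

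KRT8, the type II partner, changed less and was not called. Its level was 3773, 3457 and 3621 FPKM in si-NC, 3342, 3319 and 3011 in siRNA 1, and 3092, 3468 and 3467 in siRNA 2. The siRNA 1 libraries lay below the control ones, and the siRNA 2 libraries overlapped them. Its log2 fold change was -0.17 for siRNA 1 (95% interval -0.29 to -0.042, limma adjusted P = 0.024), under the 1.3-fold limit, and -0.12 for siRNA 2 (-0.24 to 0.0096, limma adjusted P = 0.0891).

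As KRT18 fell and KRT8 was not called, the KRT8 to KRT18 ratio of FPKM was higher after both siRNAs. It was 1.504, 1.48 and 1.48 in si-NC, 1.81, 1.86 and 1.79 in siRNA 1, and 1.82, 1.94 and 2.004 in siRNA 2. No siRNA library reached down to the control range, and the siRNA groups overlapped each other. The exact permutation test gave P = 0.1 for each siRNA, two-sided, which is the smallest P that 3 libraries against 3 allow.

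KRT19, the other type I keratin of luminal cells, was not called. It stood at 1251, 1095 and 1193 FPKM in si-NC, 1178, 1144 and 1044 in siRNA 1, and 1087, 1293 and 1250 in siRNA 2, so that all 3 groups overlapped. The log2 fold change was -0.072 for siRNA 1 (95% interval -0.23 to 0.089) and 0.035 for siRNA 2 (-0.13 to 0.20), and the limma adjusted P was 0.402 and 0.683. KRT18 and KRT19, which can both pair with KRT8, thus differed in their values. The KRT18 to KRT19 ratio was 2.005 to 2.14 in si-NC, 1.56 to 1.61 in siRNA 1 and 1.38 to 1.56 in siRNA 2, without overlap between the control and either siRNA (exact permutation P = 0.1 for each, the smallest possible). This ratio was added after the values had been seen.

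KRT7, the type II keratin of ductal and glandular epithelium, was lower after siRNA 1. It stood at 47.7, 42.5 and 45.8 FPKM in si-NC, 33.7, 29.7 and 26.1 in siRNA 1, and 33.4, 43.0 and 39.0 in siRNA 2. All siRNA 1 libraries lay below the control, and of the siRNA 2 libraries only r1 reached the control range. The log2 fold change was -0.59 ± 0.10 for siRNA 1, 1.51-fold lower, with a limma adjusted P of 5.54e-04. For siRNA 2 it was -0.24 ± 0.10 with a limma adjusted P of 0.0588, under the fold limit. The difference between the siRNAs was itself 0.36 ± 0.10 (limma adjusted P = 0.018), also under the limit, and it passed the limit without the unsuffixed siRNA 1 library (0.45) or without the unsuffixed siRNA 2 library (0.45).

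KRT80, the type II keratin linked to desmosomes, was higher after both siRNAs, with the smallest standard error of the 8. It stood at 62.0, 60.4 and 61.6 FPKM in si-NC, 89.8, 87.8 and 89.8 in siRNA 1, and 90.4, 91.0 and 92.7 in siRNA 2. The siRNA groups lay far above the control and next to each other. KRT80 rose by 0.53 ± 0.026 on the log2 scale for siRNA 1, a 1.45-fold rise with a limma adjusted P of 1.57e-07. For siRNA 2 it was 0.57 ± 0.026, a 1.48-fold rise with a limma adjusted P of 5.83e-08.

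KRT10, the type I keratin of differentiating epidermis, was low in every library and higher after the siRNAs. It stood at 5.00, 5.14 and 4.99 FPKM in si-NC, 6.36, 6.61 and 6.13 in siRNA 1, and 7.34, 7.07 and 7.74 in siRNA 2. The 3 groups did not overlap, and siRNA 2 was the highest. The log2 fold change was 0.29 ± 0.045 for siRNA 1, a 1.22-fold difference under the limit of a call, with a limma adjusted P of 3.26e-04. For siRNA 2 it was 0.47 ± 0.045, a 1.39-fold rise with a limma adjusted P of 8.28e-06. Both folds are of FPKM + 1. With 0.1 FPKM added in place of 1, the log2 fold change of KRT10 was 0.33 and 0.54. The level corresponds to an estimated 270 to 279 fragments per control library and 362 to 375 per siRNA 2 library, against 38729 to 47005 fragments of KRT19 in the control, so that counting error should weigh more on KRT10. Its control libraries (4.99 to 5.14 FPKM) still lay close together, so their spread may understate that error.

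KRT10 is a called member for which the RefSeq promoter table held a sequence, one of 2 matches among the 8 (the other was KRT8), so its 250 bases before the start site are shown (GRCh38.p14, chr17:40822615-40822864, minus strand, 5′ to 3′), with the letters of a TATA box, TATAAA, in capitals. The motif was searched on both strands of the 300-base window around the start, and 11.53% of all 35116 promoters in the table held it. In KRT10 it occurred 1 time on the forward strand, starting 29 bases before the start site. The KRT8 window did not contain these letters, but only 1 of 17 GENCODE transcripts of KRT8 starts there.
KRT10: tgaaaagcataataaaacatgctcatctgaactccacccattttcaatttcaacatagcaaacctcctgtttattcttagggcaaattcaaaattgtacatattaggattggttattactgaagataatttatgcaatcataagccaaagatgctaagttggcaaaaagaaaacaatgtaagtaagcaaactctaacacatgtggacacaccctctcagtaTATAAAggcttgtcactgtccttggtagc

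The hair keratins KRT81 and KRT86 were not called in any comparison. KRT81 stood at 12.8, 10.7 and 10.3 FPKM in si-NC, 12, 11.2 and 10.5 in siRNA 1, and 11.0, 12.9 and 13.2 in siRNA 2. KRT86 stood at 21.9, 18.3 and 20.1 FPKM in si-NC, 19.2, 19.4 and 17.4 in siRNA 1, and 19.0, 22.1 and 21.7 in siRNA 2. The groups overlapped for both genes. The log2 fold change of KRT81 was -0.00053 for siRNA 1 (95% interval -0.19 to 0.19) and 0.13 for siRNA 2 (-0.067 to 0.32). That of KRT86 was -0.10 for siRNA 1 (-0.27 to 0.065) and 0.055 for siRNA 2 (-0.11 to 0.22). Summed, because their shared stretches leave the split between them uncertain, they had 31.4 ± 3.0 FPKM in si-NC, 29.9 ± 1.7 in siRNA 1 and 33.3 ± 2.8 in siRNA 2 (SD, n = 3), with overlap throughout (exact permutation P = 0.6 and 0.5 against si-NC).

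Counted over the 8 members, siRNA 1 gave 1 called higher (KRT80), against 11.1% of all tested genes, and 2 called lower (KRT7 and KRT18), against 15.6%. For siRNA 2, 2 were called higher (KRT10 and KRT80), against 11.0%, and 1 lower (KRT18), against 23.1%. Both comparisons use the same control libraries. The same calls were made with an adjusted P of at most 0.05. The median log2 fold change of the 8 was -0.086 for siRNA 1 beside 0.0032 over all tested genes, and 0.045 for siRNA 2 beside -0.095. The libraries of the 2 groups did not overlap for 5 members in siRNA 1, against 70.0% of all tested genes, and for 3 in siRNA 2, against 73.0%. Between the siRNAs no member was called by limma, against 7.64% of all genes. Without the fold limit, 2 of the 8, KRT7 and KRT10, had an unadjusted P under 0.05, beside 6697 of the 12884 tested genes. All siRNA 2 libraries lay above all siRNA 1 libraries for KRT10 and KRT80, against 53.7% of all genes without overlap in either direction.

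**Figure D2:**
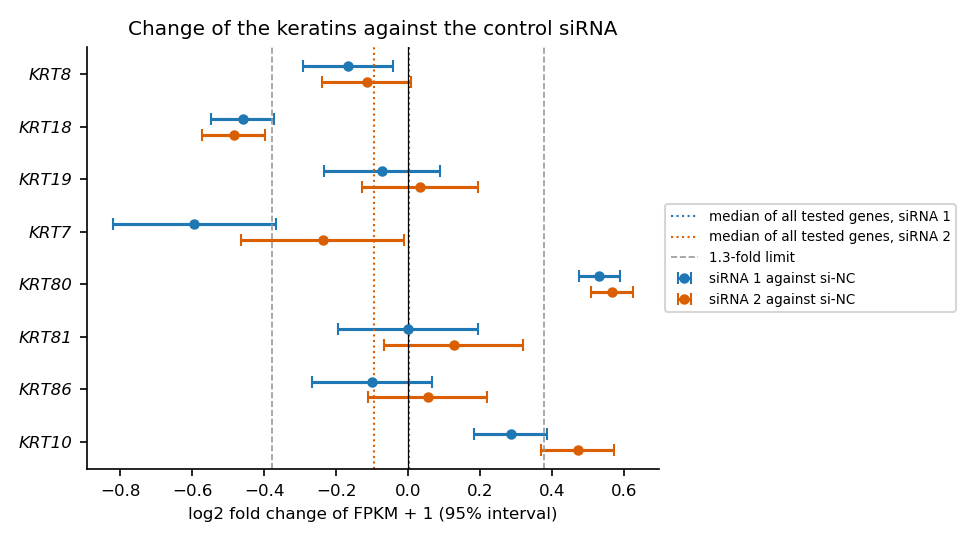
Log2 fold change of FPKM + 1 (horizontal axis) with its 95% interval for each keratin, siRNA 1 and siRNA 2 against si-NC. Dashed lines mark the 1.3-fold limit and dotted lines the median of all tested genes, 0.0032 and -0.095. KRT18 lies left and KRT80 right of the limits for both siRNAs, KRT7 for siRNA 1 alone and KRT10 for siRNA 2 alone.

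Summed over the 3 type I members, the level was 3618 ± 163 FPKM in si-NC, 2898 ± 154 in siRNA 1 and 2956 ± 149 in siRNA 2 (SD, n = 3). All siRNA libraries lay below the control range of 3444 to 3765, with an exact permutation P of 0.1 for each siRNA, the smallest possible. Summed over the 5 type II members, it was 3755 ± 164 in si-NC, 3373 ± 189 in siRNA 1 and 3505 ± 225 in siRNA 2. The siRNA 1 libraries lay below the control and the siRNA 2 libraries overlapped it (exact permutation P = 0.1 and 0.3). The type II to type I ratio was 1.03 to 1.04 in si-NC, 1.15 to 1.18 in siRNA 1 and 1.16 to 1.22 in siRNA 2, so that the near equality of both types in the control was not seen in the siRNA libraries. KRT8, KRT18 and KRT19 make up nearly all of these sums, and this ratio and the shares below were added after the values had been seen. The 8 members held 1.41% ± 0.046 of the summed FPKM of all genes in si-NC, 1.27% ± 0.063 in siRNA 1 and 1.25% ± 0.072 in siRNA 2. The sums, ratios and shares were not corrected for GC content. With the GC correction described below, KRT18 alone of these 3 main genes stayed lower, at -0.33 and -0.39 on the log2 scale. KRT8 was then at -0.016 and 0.00067, and KRT19 at 0.16 and 0.22. In bulk RNA, fewer cells that express a gene and less of its RNA per cell cannot be told apart.

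**Figure D3:**
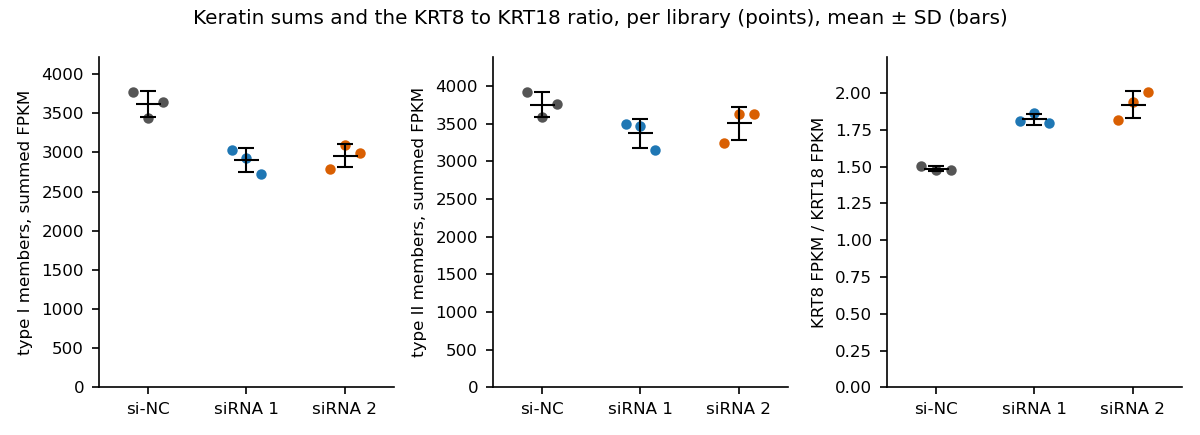
Summed FPKM of the type I members, summed FPKM of the type II members and the KRT8 to KRT18 ratio (vertical axes, from 0) per library. Points are libraries and bars are the mean ± SD of 3. The type I sum and the ratio do not overlap between si-NC and either siRNA, while the type II sum overlaps for siRNA 2.

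Most of these keratins are rich in GC. The transcripts of KRT7, KRT8, KRT18, KRT19, KRT81 and KRT86 have 59.5% to 62.9% GC, above 81.0% to 91.2% of the tested genes, while KRT80 has 56.8% and KRT10 has 52.0%. Within the groups, KRT8, KRT19 and KRT86 moved with the top GC quintile, with a Pearson r of 0.95, 0.97 and 0.96 over the 9 libraries once group means were taken off. The same r was 0.84 for KRT7, 0.80 for KRT81, 0.77 for KRT18, 0.52 for KRT80 and 0.094 for KRT10. After a correction of each library for a smooth trend with GC content, which also takes out any real change tied to GC, the log2 fold change of KRT18 was -0.33 for siRNA 1, no longer past the 1.3-fold limit, and -0.39 for siRNA 2. Its limma adjusted P was then 9.45e-07 and 1.67e-07. KRT7 was -0.31 for siRNA 1, also under the limit, and -0.0089 for siRNA 2. KRT80 was 0.57 and 0.58, and KRT10 was 0.22 and 0.39.

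The same correction turned the sign of members with small differences. For siRNA 1, KRT19 went from -0.072 to 0.16 and KRT86 from -0.10 to 0.11, while KRT81 went from -0.00053 to 0.25. For siRNA 2, these 3 genes were at 0.22, 0.22 and 0.33 after the correction, and KRT8 was at -0.016 for siRNA 1 and 0.00067 for siRNA 2. None of these 4 genes passed the 1.3-fold limit under any setting tried. With median-ratio scaling, KRT18 in siRNA 2 was at -0.377, just inside the limit of 0.379, with a limma adjusted P of 3.27e-05.

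**Figure D4:**
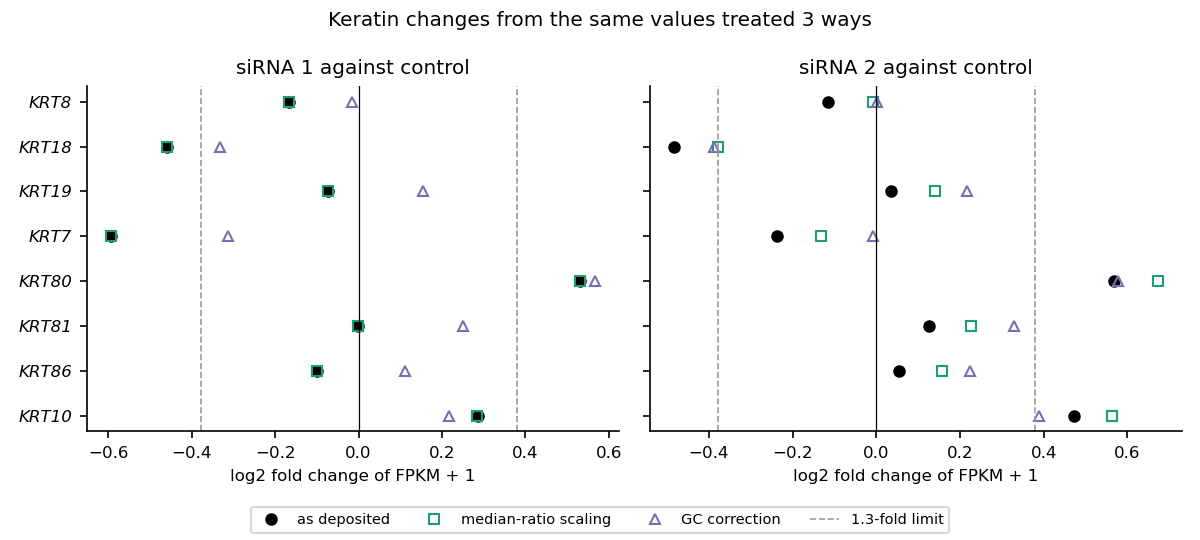
Log2 fold change of FPKM + 1 (horizontal axes) of the 8 keratins for siRNA 1 and siRNA 2 against si-NC, from the values as deposited (filled points), after median-ratio scaling (squares) and after the GC correction (triangles). Dashed lines mark the 1.3-fold limit. KRT80 stays right of the limit in all 6 cases, and KRT18 stays negative in all 6.

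Within groups the members fell into those that varied together and those that did not. After the group means were taken off, the Pearson r over the 9 libraries was 0.98 between KRT8 and KRT19, 0.97 between KRT19 and KRT86, and 0.86 between KRT8 and KRT18. KRT10 had an r between -0.14 and 0.25 with the other members. For KRT7, KRT8, KRT18, KRT19 and KRT86 the lowest library of its group was r1 in si-NC, r2 in siRNA 1 and the unsuffixed library in siRNA 2. Those 3 libraries were also the lowest of their groups for the top GC quintile. The part of this in the differences between groups was not tested beyond the correction above.

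The genes whose log2 levels followed each member most closely over the 9 libraries were listed by Pearson r, as a description. For KRT18 they were YDJC (r = 0.998), ESRRA (0.997) and LZTS3 (0.997). For KRT80 they were PSMD2 (0.999), STIP1 (0.998) and ELMSAN1 (0.998), and for KRT10 MGST3 (0.991), RGCC (0.990) and MED24 (0.988). For KRT7 they were CCDC124 (0.994), C1orf122 (0.993) and TPM2 (0.991). For KRT8 they were UBE2S (0.986), GGA1 (0.983) and FAM129B (0.981). KRT19 was followed by NOSIP (0.978), BATF (0.965) and KRT86 (0.964), and KRT86 by BATF (0.971), PPP1CA (0.971) and RRAS (0.965). The closest genes to KRT81 were less close, TBL3 (0.935), CARD19 (0.915) and the unnamed BGI_novel_G001241 (0.914). Each r rests on 9 points that share 3 group means.

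Of 47 other keratins, 35 had a row and 6 averaged 1 FPKM or more. The other 29 lay under that level, among them the basal keratins KRT5 and KRT14 at 0.03 to 0.63 FPKM in the 9 libraries. KRT6A, a type II keratin of hair follicles and of stressed or wounded epidermis, showed the largest change of all keratins tested. It stood at 1.36, 1.18 and 1.74 FPKM in si-NC, 6.01, 5.20 and 5.96 in siRNA 1, and 11.48, 12.02 and 11.67 in siRNA 2. The 3 groups were well apart. The log2 fold change was 1.47 ± 0.082 for siRNA 1 (limma adjusted P = 3.98e-07) and 2.40 ± 0.082 for siRNA 2 (limma adjusted P = 1.02e-08), and between the siRNAs 0.92 ± 0.082 (limma adjusted P = 4.21e-05). The added 1 FPKM shrinks changes from so low a level. With 0.1 FPKM added in place of 1, these changes were 1.94, 2.97 and 1.02. The KRT6A model lies over that of KRT6C, which stood at 0 to 0.03 FPKM, and the near-identical KRT6B stood at 0.09 to 0.26.

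For siRNA 1, 1 of the 6 was called higher and 4 lower, beside 11.1% and 15.6% of all tested genes. For siRNA 2, 1 was called higher and 3 lower, beside 11.0% and 23.1%. After the GC correction these counts were 1 and 3 for each siRNA. KRT17, KRT40 and KRT23 were called lower for both siRNAs. KRT17, a type I keratin of basal cells and a usual partner of KRT6A, stood at 10.2, 9.76 and 8.56 FPKM in si-NC, 7.61, 6.74 and 6.73 in siRNA 1, and 5.19, 5.59 and 5.50 in siRNA 2. Its groups did not overlap, and it fell by 0.39 and 0.71 on the log2 scale (limma adjusted P = 5.81e-04 and 7.80e-06). For siRNA 1 it was under the limit after the GC correction (-0.15) and without r1 (-0.36) or r2 (-0.36) of siRNA 1 or the unsuffixed library (-0.34) or r1 (-0.37) of si-NC. KRT40, a type I hair keratin, stood at 7.56 to 7.79 FPKM in si-NC, 3.96 to 4.30 in siRNA 1 and 3.53 to 4.01 in siRNA 2, with log2 fold changes of -0.75 and -0.85. KRT23, a type I keratin known from gut and pancreatic cells, stood at 2.54 to 3.38 FPKM in si-NC, 0.85 to 1.81 in siRNA 1 and 0.97 to 1.78 in siRNA 2, with log2 fold changes of -0.68 and -0.70. With 0.1 FPKM added in place of 1, those of KRT23 were -0.99 and -1.02.

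KRT85 and KRT15 differed between the siRNAs. KRT85, a type II hair keratin whose model overlaps those of KRT81 and KRT86, stood at 12.2 to 15.2 FPKM in si-NC, 6.15 to 8.51 in siRNA 1 and 9.59 to 13.4 in siRNA 2. It was called for siRNA 1 (-0.77 ± 0.14, limma adjusted P = 6.76e-04) and not for siRNA 2 (-0.15 ± 0.14), and the difference between them was 0.61 ± 0.14 (limma adjusted P = 0.00543). KRT15, a type I keratin of basal cells, was at 0.0020 for siRNA 1 and 0.31 for siRNA 2 on the log2 scale, under the limit in both, and differed between them by 0.31 ± 0.062 (limma adjusted P = 0.00328). The median over the 6 was -0.53 for siRNA 1 beside 0.0032 over all tested genes, and -0.43 for siRNA 2 beside -0.095.

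**Figure D5:**
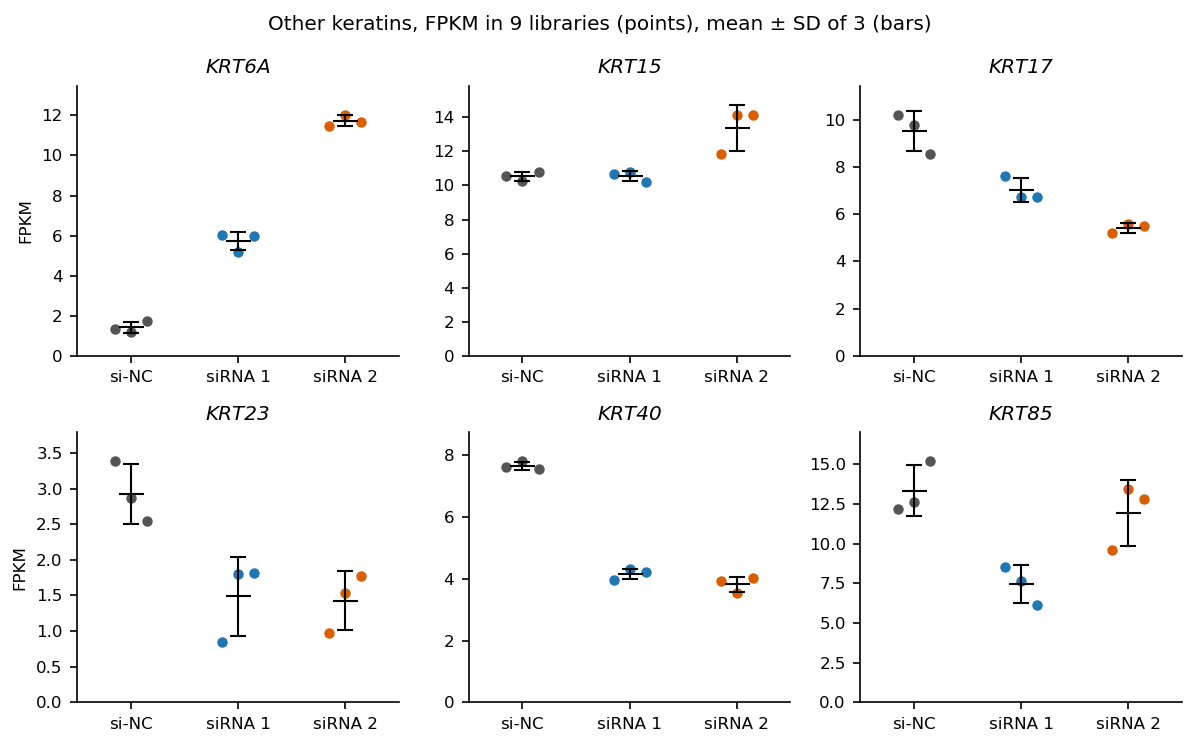
FPKM (vertical axes, from 0) of the 6 other keratins with a mean of at least 1 FPKM. Points are libraries and bars are the mean ± SD of 3. KRT6A rises from si-NC to siRNA 1 and again to siRNA 2, KRT17, KRT23 and KRT40 are lower in both siRNA groups, and KRT85 is lower in siRNA 1.

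Keratin filaments are tied to desmosomes and hemidesmosomes by linker proteins. Of 25 genes for such anchors, 19 were tested. For siRNA 1, 4 were called higher and 5 lower, beside 11.1% and 15.6% of all tested genes, and for siRNA 2, 2 higher and 6 lower, beside 11.0% and 23.1%. After the GC correction these counts were 4 and 2 for siRNA 1 and 3 and 6 for siRNA 2. The median log2 fold change of the 19 was 0.15 for siRNA 1 and -0.0045 for siRNA 2. PKP3, a plakophilin of the desmosomal plaque, stood at 66.6, 55.8 and 64.3 FPKM in si-NC, 31.3, 29.7 and 25.9 in siRNA 1, and 29.8, 37.2 and 34.3 in siRNA 2. FAM83H, which recruits a kinase to keratin filaments, stood at 11.3 to 12.2 FPKM in si-NC, 6.16 to 6.39 in siRNA 1 and 4.78 to 5.47 in siRNA 2. For both genes all siRNA libraries were well below the control, with log2 fold changes of -1.08 and -0.87 for PKP3 and -0.81 and -1.05 for FAM83H. EVPL (envoplakin, a plakin of the cornified envelope) was at -0.74 and -0.76. The limma adjusted P of these 3 genes was between 9.42e-08 and 7.74e-05. COL17A1, a hemidesmosomal collagen, is among those counted as higher, at 0.67 and 0.73, but it passed the filter on low values only through the siRNA groups, its control libraries being at 0.53 to 0.62 FPKM, and its values are given as a description.

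A further 3 anchors were called for both siRNAs and are named after their values were seen. DSP (desmoplakin, the link from keratins to the desmosome) stood at 67.5 to 73.0 FPKM in si-NC, 100.8 to 101.3 in siRNA 1 and 98.5 to 103 in siRNA 2, a rise of 0.51 and 0.50 on the log2 scale. PPL (periplakin) was at -0.57 and -0.66 on the log2 scale and EPPK1 (epiplakin) at -0.47 and -0.70. After the GC correction EPPK1 was at 0.11 for siRNA 1 and -0.22 for siRNA 2, called in neither, and for siRNA 1 FAM83H and EVPL were both at -0.34, under the limit. PKP3 was smaller after that correction, at -0.58 for siRNA 1 and -0.46 for siRNA 2, and was still called in both.

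Of 15 transcription factors of epithelial cells, 7 were tested, and 5 were called higher for siRNA 1 and 4 for siRNA 2, beside 11.1% and 11.0% of all tested genes, the rest not being called. The factors not tested, among them GRHL2 at 0.02 to 0.13 FPKM, averaged under 1 FPKM. The median of the 7 was 0.49 for siRNA 1 and 0.47 for siRNA 2. ELF3, an ETS factor of simple epithelia, stood at 71.1 to 76.2 FPKM in si-NC, 105.5 to 109.9 in siRNA 1 and 148 to 163 in siRNA 2, a rise of 0.54 and 1.08 on the log2 scale. KLF4, a zinc finger factor of differentiating epithelium, rose by 0.41 and 0.82, and its relative KLF5 by 0.49 and 0.47 (0.374 for siRNA 1 after the GC correction, just under the limit). TFAP2C, an AP-2 factor of luminal breast cells, rose by 0.62 and 0.67 from a low level of 1.70 to 1.77 FPKM in si-NC. With 0.1 FPKM added in place of 1, the rise of TFAP2C was 0.85 and 0.91. The limma adjusted P of these 4 genes lay between 1.70e-08 and 1.03e-04.

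Of 16 other intermediate filament genes, 9 were tested, of which 1 was called higher and 2 lower for siRNA 1, beside 11.1% and 15.6% of all tested genes, and 1 lower for siRNA 2, beside 23.1%. After the GC correction none of the 3 calls for siRNA 1 was left, and for siRNA 2 there were 2 higher and 1 lower. The gene counted as higher for siRNA 1 was SYNC (syncoilin), which stood at 0.74 to 0.85 FPKM in si-NC and passed the filter on low values only through the siRNA groups. NES (nestin, a filament of progenitor cells) was at -0.42 and -0.50, with 23.2 to 25.4 FPKM in si-NC and 15.8 to 18.8 in the siRNA libraries. For siRNA 1 it was under the limit after the GC correction (-0.30) and without library r2 of siRNA 1 (-0.37). VIM (vimentin, the filament of mesenchymal cells), which is named here after its values were seen, stood at 366 to 391 FPKM in si-NC and 423 to 441 in the siRNA libraries, with log2 fold changes of 0.21 and 0.19 under the limit.

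The cell line's epithelial label was checked against marker lists. Without the keratins, 8 of 10 luminal epithelial markers had at least 1 FPKM in each group, with EPCAM, a surface protein of epithelia, at 287 to 330 FPKM and CDH1 (E-cadherin) at 84.7 to 117 FPKM. The luminal factors GATA3 and FOXA1 were at 0.41 to 0.88 and at 0 to 0.04 FPKM, so those 2 defining markers were absent or nearly so. With the keratins, 12 of the 14 luminal markers were tested, and 3 were called higher and 5 lower for siRNA 1, beside 11.1% and 15.6% of all tested genes, and 3 higher and 4 lower for siRNA 2, beside 11.0% and 23.1%. After the GC correction these counts were 3 and 2 for siRNA 1 and 3 and 3 for siRNA 2. The summed luminal level without keratins was 654 to 669 FPKM in si-NC, 742 to 763 in siRNA 1 and 835 to 858 in siRNA 2. The markers of the list did not move one way. EPCAM, CDH1, the claudin gene CLDN4, MUC1 and ELF3 were higher in each siRNA library than in any si-NC library. Of all tested genes, 70.0% for siRNA 1 and 73.0% for siRNA 2 did not overlap the control, in either direction. ELF3 and the mucin gene MUC1 (0.72 and 0.75 on the log2 scale) were called higher for both siRNAs. CDH1 was called for siRNA 1 alone, CLDN4 for siRNA 2 alone and EPCAM for neither. Another 3 markers, named after their values were seen, were called lower for both siRNAs. These were the claudin gene CLDN7, with 25.1 to 27.0 FPKM in si-NC and 11.5 to 12.8 in the siRNA libraries, its relative CLDN3 (-0.74 and -0.64 on the log2 scale) and the epithelial splicing factor ESRP1 (-0.51 and -0.72). After the GC correction CLDN3 was at -0.095 and -0.12, called in neither. Of 9 basal or myoepithelial markers 3 averaged 1 FPKM or more, and the list summed to 21.9 to 23.6 FPKM in si-NC, 20.0 to 21.1 in siRNA 1 and 19.6 to 22.5 in siRNA 2. The fibroblast list summed to 376 to 401 FPKM in si-NC, 444 to 453.2 in siRNA 1 and 435 to 452 in siRNA 2, nearly all of it VIM, while COL3A1 and DCN were at 0 in all siRNA 1 libraries. Of its other genes, COL1A1 (a collagen) was called higher for both siRNAs at 0.44 and 0.62, with 3.49 to 4.12 FPKM in si-NC and 5.31 to 7.08 in the siRNA libraries, and LUM (lumican) stood at 5.33 to 7.11 FPKM over all libraries. Leukocyte markers summed to 6.94 to 8.94 FPKM over all libraries and endothelial ones to 0.55 to 1.01. The part of such cells in the keratin values was not tested.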

How the data were processed

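RNA from 9 libraries of MDA-MB-453 cells, 3 per group, was sequenced on the BGISEQ-500 platform. The authors deposited 1 table of FPKM values per gene, rounded to 2 decimals, for which the submitters' notes name Bowtie2 version 2 and GRCh37.p13, and the counting tool is not given in the sources used here. 4 lines without values were left out, and the authors' own ratios and their p-values and q-values were not used. Groups came from the labels. Log2(FPKM + 1) of 12884 genes (mean not under 1 FPKM) was fitted with limma 3.58.1 in R 4.3.3 (eBayes with a trend, all 9 libraries, condition only), with Benjamini-Hochberg adjustment over all genes, and genes were called at the fold change and P criteria of the study. Sums and ratios were compared by two-sided exact permutation tests over libraries. The fit was tested on simulated data. Python 3.11.15 (scipy 1.17.1) served for the rest. FPKM carries no counts, so depth was estimated from the steps of low values (226 to 243 genes per library, mean distance from whole fragments 0.09 to 0.12), and no count model was fitted. GC content was matched by accession for 16778 genes and by symbol for 166, and 11367 of the tested genes had it. Coding sequences and transcripts came from GENCODE v29 (GRCh38) and promoters from RefSeq, with no coordinates moved between builds. Genes named were the 8 members, other keratins with a mean of at least 1 FPKM, and of the other lists at most 4 called for both siRNAs with the largest mean change. The members and lists were chosen with earlier results of these data known. The matching stretches of the type II genes are not reported here.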

Additional observations from a re-analysis of the deposited data

Results flagged for a closer look

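Between siRNA 1 and siRNA 2, 6697 of all 12884 tested genes had an unadjusted limma P of at most 0.05, so such a difference was common. The genes listed above only by Pearson r were left out here. Of the other genes named, 13 differed by the limma test between the siRNAs (adjusted P of at most 0.05 over all tested genes). Among the 8 keratins these were KRT7, higher in siRNA 2 than in siRNA 1 by 0.36 on the log2 scale, and KRT10, higher by 0.19. KRT7 in siRNA 2 lay between siRNA 1 and the control, while KRT10 was farther from the control in siRNA 2 than in siRNA 1. Of the other keratins, KRT6A was higher in siRNA 2 by 0.92, KRT85 by 0.61 and KRT15 by 0.31, and KRT17 was lower, with a log2 fold change of -0.32. The transcription factors ELF3 and KLF4 were higher in siRNA 2 by 0.54 and 0.41, and the linker gene FAM83H was lower, with a log2 fold change of -0.24. Of the marker genes, CLDN4 was higher in siRNA 2 by 0.73, and CDH1, ESRP1 and LUM were lower, with log2 fold changes of -0.20, -0.21 and -0.28. Groups of 3 libraries are too small for a test of single libraries that stand apart.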

How the results depend on the processing

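The results of the 8 keratins were compared with the main fit in 360 cases over the settings and comparisons. Only median-ratio scaling, the GC correction, the smaller added value and leaving out 1 library could move a log2 fold change. The other settings change the filter, the threshold or the P value alone, so part of the agreement was fixed in advance. Of the 360, 349 stayed on the same side of a call with the same direction or without a call, 8 gained a call and 3 lost one. The 3 were KRT7 (-0.31) and KRT18 (-0.33) for siRNA 1 after the GC correction and KRT18 (-0.38) for siRNA 2 after median-ratio scaling. The number of keratins called was 3 for each siRNA and 0 between the siRNAs. For siRNA 1 it was 5 without a fold limit and 1 after the GC correction. Between the siRNAs it was 2 without a fold limit, 1 (KRT7) after scaling and 0 to 1 with 1 library left out. Over the whole table, 3436, 4385 and 984 genes were called for siRNA 1, siRNA 2 and siRNA 2 against siRNA 1. Without a fold limit these were 8724, 9396 and 6697, and with a minimum of 5 FPKM, where fewer genes are tested, 2211, 2714 and 547. With 0.1 FPKM added in place of 1, the last was 1656. Median-ratio scaling moved the log2 difference of the type I sum to -0.19 for siRNA 2 against control and to 0.14 for siRNA 2 against siRNA 1, and that of the type II sum to 0.00623 and 0.16. EPPK1 reversed for siRNA 1 to 0.11 after the GC correction, where it was not called. The replicate labels did not pair the libraries, as same-labelled libraries deviated from their groups with correlations of -0.24 to 0.10. With the label as a replicate block, 3449, 4400 and 988 genes were called, and no call on a keratin changed. Adjusted P values, no filter and fits on the groups compared alone changed no call on the 8 keratins.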
